A study of Mus musculus with 4 samples.

Results

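The cells described here are thymocytes that carried coreceptor mRNA (Cd4, Cd8a or Cd8b1) together with mRNA of genes for copying DNA, and little mRNA of genes for G2 and mitosis. They numbered 319 of the 57354 deposited cells, or 319 of the 18392 cells with at least 200 detected genes, at least 3000 unique molecular identifiers (UMIs, each counting 1 captured transcript) and at most 10% mitochondrial UMIs. A cell was taken when Cd4, Cd8a and Cd8b1 together gave 3 or more UMIs and 8 S-phase genes (Mcm3, Mcm5, Mcm6, Hells, Ung, Dtl, Cdc6 and Uhrf1) together gave 6 or more. A cell was left out when Top2a, Nusap1, Prc1, Spc25 and Cdca3 together gave 6 UMIs or more (the G2 gene sum), when Cdc20, Cenpa, Ccnb1, Ccnb2 and Dlgap5 gave 4 or more, when 6 genes of double-negative thymocytes gave 4 or more, or when it had any UMI of Nkg7 or of C1qa, C1qb or C1qc. The cells were thus chosen by these measured UMI counts, and the levels of those genes in them are a description and carry no test.

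Double-positive (DP) blasts are the large, dividing CD4+CD8+ thymocytes that follow beta selection, the checkpoint at which a working T cell receptor beta chain drives a burst of division before the cells rest and rearrange the alpha chain. During G1 the origin recognition complex, Cdc6 and Cdt1 load the Mcm2 to Mcm7 helicase onto DNA, and during S phase that helicase, the polymerases and the clamp Pcna copy the genome while histones and nucleotides are made. Many of these genes are switched on at the G1/S boundary by E2F transcription factors, whereas genes for G2 and mitosis are repressed until later through an element called the CHR.

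The series holds 4 libraries of thymocytes, made with 10x Genomics droplets and a 3′ kit of version 3 chemistry, and asks how loss of Tox4, a nuclear protein that binds DNA, affects T cell development. Libraries control 1 and control 2 came from Tox4 F/F mice, and libraries cKO 1 and cKO 2 from mice with the same floxed alleles and Lck-Cre. All groups therefore carried loxP sites around exons 4 to 6 of Tox4, an allele made in C57BL/6 eggs, and the study used gender-matched littermates aged 6 to 8 weeks. The Cre is driven by the proximal promoter of Lck, which is active in developing T cells, so that cells without that promoter's activity are not targeted. The study describes its mice as pairs of a control and a cKO animal, and the labels, which give only a library number, do not say that the number marks a pair.

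The S-phase cells numbered 46 in control 1, 66 in control 2, 78 in cKO 1 and 129 in cKO 2, with medians of 8137, 8269, 8862 and 7539 UMIs per cell. Their UMI sums were 452055, 622992, 759035 and 1056311. They are compared below with 3461 DP cells in G2 or mitosis (G2/M cells) and with 6233 non-cycling DP cells from the same libraries, each with the same quality limits. The G2/M cells are those past either limit on G2 and mitosis genes with the other limits on cell type met, whatever their S-phase sum. Of the G2/M cells 65.7%, 72.4%, 75% and 71.2% of control 1, control 2, cKO 1 and cKO 2 also had an S-phase sum of 6 or more, so most carried S-phase mRNA as well. Non-cycling cells had under 2 UMIs of each of these sums. Cells with over 10% mitochondrial UMIs made up 48.3% of control 1 and 46.1% of cKO 1 against 20.6% of control 2 and 23.1% of cKO 2. Pairs of libraries shared between 36 and 70 cell barcodes, none of which marked an S-phase cell in both. Between 3.85% and 11.6% of the S-phase cells of a library lay among the 5% of its cells with the highest doublet score.

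The promoters of 3 genes are shown as examples of words found in most genes that chose the cells or in most that excluded them. They are Mcm6, a helicase subunit of the gate, and Pclaf, a partner of Pcna that was not used by the gate. The third is Ccnb2, the cyclin B2 gene whose mRNA excluded cells. Capitals mark E2F words (TTTCCCGC, TTTGGCGC, TTTCGCGC or TTTGCCGC, either strand, overlapping words merged) in the first 2 and the CHR word (TTTGAA, either strand) in the third. All are from RefSeq on GRCm38.p6, 250 bases before to 50 bases after the start, written 5′ to 3′ along the gene.
Mcm6 promoter, chr1:128359656-128359955, minus strand: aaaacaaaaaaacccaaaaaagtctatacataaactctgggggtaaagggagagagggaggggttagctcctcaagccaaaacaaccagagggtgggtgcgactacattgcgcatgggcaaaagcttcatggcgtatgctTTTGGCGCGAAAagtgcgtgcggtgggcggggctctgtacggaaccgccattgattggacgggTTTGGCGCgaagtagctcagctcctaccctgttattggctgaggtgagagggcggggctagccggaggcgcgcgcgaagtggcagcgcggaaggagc
Pclaf promoter, chr9:65890073-65890372, plus strand: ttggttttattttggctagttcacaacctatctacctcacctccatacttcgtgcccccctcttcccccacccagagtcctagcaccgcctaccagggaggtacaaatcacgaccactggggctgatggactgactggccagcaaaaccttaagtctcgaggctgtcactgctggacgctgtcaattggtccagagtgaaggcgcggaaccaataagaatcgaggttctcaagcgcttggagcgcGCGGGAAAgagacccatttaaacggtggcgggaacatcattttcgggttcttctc
Ccnb2 promoter, chr9:70421505-70421804, minus strand: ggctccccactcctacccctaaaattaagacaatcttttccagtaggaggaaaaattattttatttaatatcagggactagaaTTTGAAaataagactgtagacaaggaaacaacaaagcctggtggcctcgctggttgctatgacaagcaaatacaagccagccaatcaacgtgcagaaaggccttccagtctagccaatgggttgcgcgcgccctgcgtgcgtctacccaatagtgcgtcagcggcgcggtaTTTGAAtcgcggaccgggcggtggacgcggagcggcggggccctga

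An E2F word stood in the promoters of 7 of the 8 S-phase genes of the gate, all but Ung, against 2.60% of 27025 genes with a promoter in the table. A CHR word stood in 0 of these 8 and in 7 of the 9 G2 and mitosis genes of the gate that had a promoter, against 20.2% of all genes. Outside the gate, E2F words stood in 4 of 9 origin licensing genes with a promoter, in 1 of 20 nucleotide supply genes and in 0 of 18 genes of T-cell identity. CHR words stood in 4 of 8 origin firing genes, in 2 of 20 nucleotide supply genes and in 10 of 15 G2 and mitosis genes. A match describes these windows only.

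The levels of the genes that define the gate were as follows, in counts per 1000000 UMIs of the group (CPM). Mcm6 stood at 350 and 414 CPM in the S-phase cells of control 1 and 2 and at 394 and 382 CPM in those of cKO 1 and 2. In non-cycling DP cells Mcm6 lay between 17.5 and 21.5 CPM, and in G2/M cells between 277 and 298 CPM. Ung, which removes uracil from DNA, stood at 137, 140, 153 and 183 CPM in the S-phase cells of control 1, control 2, cKO 1 and cKO 2. Its level in G2/M cells lay between 45.7 and 55.5 CPM, the largest mean ratio to G2/M cells among the 8 genes. Hells, a chromatin remodeller needed for DNA methylation, was at 221, 215, 241 and 275 CPM in S-phase cells in the same order and between 157 and 189 CPM in G2/M cells. Uhrf1, which guides DNA methylation to new strands, did not separate the 2 kinds of dividing cells, with 281, 242, 241 and 287 CPM in S-phase cells and 251 to 272 CPM in G2/M cells.

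Genes that the gate did not use are given here as levels summed over all S-phase cells of a library, a subset of which, described below, lacked some of them. Among genes with at least 50 CPM in the S-phase cells of every library, the largest ratios to non-cycling DP cells included those of E2f1, the transcription factor of the G1/S boundary (mean ratio 19.0), Ncapg2, a condensin subunit (18.5), and Chaf1a, which deposits histones on new DNA (16.7). Pclaf had a mean ratio of 13.6, Lig1, the ligase of the lagging strand, with 13.5, Gins2 with 11.5, Rrm2, a ribonucleotide reductase subunit, with 11.3, and Prim1, the primase, with 11.1. These genes were high in all 4 libraries: E2f1 stood at 68.6, 83.5, 77.7 and 113 CPM in the S-phase cells of control 1, control 2, cKO 1 and cKO 2 and below 5 CPM in every non-cycling group.

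Against G2/M cells the picture by function was mixed. The summed level of 15 origin licensing genes, 4 of them genes of the gate, was 2382, 2313, 2526 and 2548 CPM in S-phase cells of control 1, control 2, cKO 1 and cKO 2 and between 2042 and 2133 CPM in G2/M cells. Those 4 genes were among the ones that chose the S-phase cells, so this sum was raised by the gate. Outside the gate, Mcm2 in S-phase cells was at 1.48 to 1.81 times its G2/M level over the 4 libraries. Mcm7 was at 0.922 to 1.19 times and Gmnn at 0.669 to 0.859 times. For 21 nucleotide supply genes, 0 of them in the gate, the sum was 2413 to 2927 CPM in S-phase cells and 3351 to 3833 CPM in G2/M cells. Replication-dependent histone genes, whose mRNA is made in S phase, were summed at 953 to 1303 CPM in S-phase cells and at 5033 to 6881 CPM in G2/M cells. These histone mRNAs mostly lack a poly(A) tail, and the kit captures poly(A), so their levels cover only part of the mRNA. In non-cycling cells the histones summed to between 624 and 830 CPM, below the S-phase cells of every library.

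**Figure D1:**
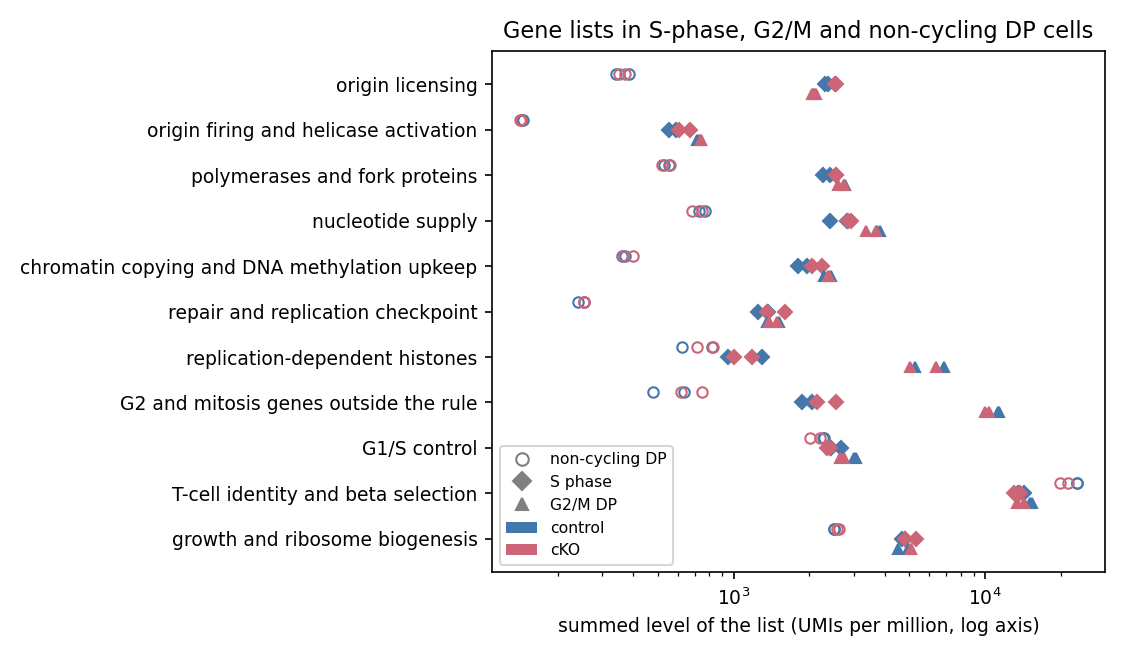
Summed level of 11 gene lists in CPM (log axis), 1 marker a library, in non-cycling DP cells (open circles), S-phase cells (diamonds) and G2/M cells (triangles), with control in blue and cKO in red. The origin licensing sum is highest in S-phase cells (2313 to 2548), and 4 of its 15 genes were used by the gate to choose those cells. Histone genes (953 to 1303) lie nearer to non-cycling cells (624 to 830) than to G2/M cells (5033 to 6881).

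Among genes outside the gate with at least 50 CPM in the S-phase cells of every library, those with the largest ratio to G2/M cells were not replication genes. They included Ccnd2, the cyclin D2 gene of G1 (mean ratio 9.13), Il7r, the interleukin-7 receptor (7.30), Tesc (6.96), Igfbp4 (6.71), Itm2a (4.81), Cd52 (4.61) and Tmsb10 (4.20), as well as H2-K1, Klf2 and Bcl2. Ccnd2 stood at 356, 213, 254 and 127 CPM in the S-phase cells of control 1, control 2, cKO 1 and cKO 2 and between 21.3 and 24.9 CPM in G2/M cells. Several of these are genes of thymocytes that have passed positive selection.

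Single cells showed that a subset carried those genes. Cells with 4 or more UMIs of a list of mature single-positive thymocytes (among them Klf2, S1pr1, Ccr7, Il7r, Zbtb7b and Nkg7) numbered 11 of 46 in control 1, 13 of 66 in control 2, 19 of 78 in cKO 1 and 15 of 129 in cKO 2, not counting 1 cell of control 2 that is described below. This limit is a range on a score and not a type, and it was set after the data were seen. Cells with a sum of 2 to 5 made up 2.17%, 12.1%, 14.1% and 9.30% of the S-phase cells in the same order. The mature-marker cells had higher medians of total UMIs (9640 to 11619) than the other S-phase cells (6913 to 8181), and lower medians of the S-phase sum (9 to 10 against 16 to 21).

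Genes outside the list differed widely between the mature-marker cells and the rest. Rag1, the recombinase gene of DP cells, was at 95.1 to 217 CPM in the mature-marker cells of the 4 libraries and at 385 to 554 CPM in the others. Trac, the constant region of the T cell receptor alpha chain, was at 586 to 872 CPM against 135 to 332 CPM. Cd8b1 was at 230 to 306 CPM against 958 to 1287 CPM, whereas Cd4 was at 198 to 297 CPM against 125 to 219 CPM. None of these ranges overlapped except those of Cd4.

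The 2 subsets also differed among replication genes. Mcm3 stood at 230 to 276 CPM in mature-marker cells and at 370 to 437 CPM in the others, and Mcm6 at 174 to 343 CPM against 401 to 450 CPM. The gap was far wider for genes of ongoing synthesis that the gate did not use: Pclaf was at 23.8 to 55.4 CPM against 440 to 701 CPM, and Rrm2 at 25.2 to 76.5 CPM against 291 to 367 CPM. In non-cycling DP cells Pclaf was at 19.9 to 50.2 CPM. The mature-marker cells thus passed the gate with helicase mRNA while Pclaf was near its non-cycling level, and for them the data did not bear out the label of DP blasts in S phase.

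**Figure D2:**
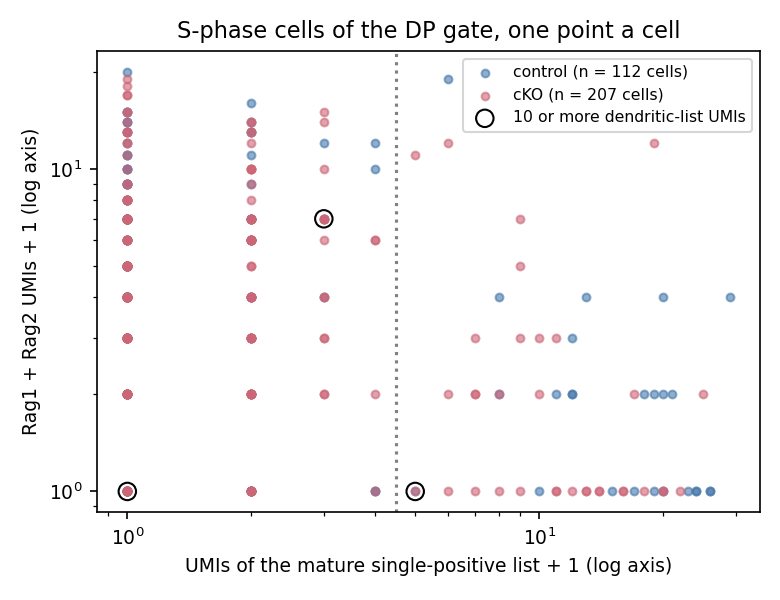
Each point is 1 S-phase cell (112 control, 207 cKO), with UMIs of the mature single-positive list plus 1 across and Rag1 plus Rag2 UMIs plus 1 up, both on log axes. Points can coincide. Right of the dotted line (4 UMIs of the list) most points lie at low Rag counts, and black circles mark the 3 control cells with 10 or more dendritic-list UMIs.

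Another 3 cells went against the label. A list of dendritic cell genes (Cd74, H2-Aa, H2-Ab1, Siglech, Flt3 and Xcr1) gave 10 or more UMIs in 1 cell of control 1 (234 UMIs, with 55 of a B cell list) and in 2 cells of control 2 (1512 and 25 UMIs), and in 0 of the 78 and 129 cells of cKO 1 and cKO 2, which allows shares of up to 3.85% and 2.33%. The cell with 1512 such UMIs also had 399 UMIs of mononuclear phagocyte genes. The summed level of the list was 560 and 2517 CPM in control 1 and 2 and 58.0 and 53 CPM in cKO 1 and 2, with Xcr1 at 0 in every library and Siglech and Flt3 at 0 in all but control 2. Results below that rest on these cells are given with and without them.

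Lists of other cell types gave the following sums. The list of 5 B cell genes summed to 347 to 405 CPM in the 4 libraries, with values of 408 to 469 CPM in non-cycling DP cells, and that of 6 double-negative genes, limited by the gate, to 13.3 to 43.5 CPM. The list of 9 mononuclear phagocyte genes summed to 208 and 787 CPM in control 1 and 2 and 169 and 143 CPM in cKO 1 and 2. The list of 5 erythroid genes summed to 12.8 to 19.9 CPM, that of 4 neutrophil genes to 0 to 3.95 CPM and that of 6 thymic epithelial genes to 7.90 to 38.5 CPM. Gamma-delta T cell genes summed to 186 and 213 CPM in control 1 and 2 and to 286 and 297 CPM in cKO 1 and 2, with Cd163l1 at 0 in both control libraries. DP genes were present in all libraries, with Trbc2 between 3794 and 4117 CPM, and UMIs of both Cd4 and a Cd8 gene were found in 78.3% and 84.8% of the S-phase cells from control thymi, against 61.5% and 58.9% in cKO.

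The G2 gene sum ordered the cells. Of the S-phase cells without dendritic markers, the median of the S-phase sum was 10.5 to 12.5 UMIs where the G2 gene sum was 0 or 1, 18 to 21 UMIs where it was 2 or 3, and 20 to 29 UMIs where it was 4 or 5. Genes outside the gate moved with it. Rrm2 was at 74.9 to 135 CPM, then at 164 to 313 CPM, then at 378 to 934 CPM. Pclaf was at 177 to 249 CPM, 328 to 541 CPM and 714 to 1506 CPM over the same steps.

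In the opposite direction, Cd52, a surface glycoprotein of mature lymphocytes, was at 1014 to 1925 CPM, 564 to 1269 CPM and 95.2 to 275 CPM. Tmsb10, a thymosin that binds actin monomers, was at 1991 to 6539 CPM at the lowest step and 397 to 747 CPM at the highest. Rag1 overlapped between all steps, with 333 to 568 CPM at the lowest and 266 to 677 CPM at the highest. Histone mRNA followed the replication genes: Hist1h2ap was at 160 to 375 CPM at the lowest step and at 570 to 2194 CPM at the highest.

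The mature-marker cells were unevenly spread over these steps. In control 1, control 2, cKO 1 and cKO 2 they numbered 9, 8, 12 and 7 at the lowest step, 2, 4, 7 and 6 at the middle one and 0, 1, 0 and 2 at the highest. Without them, a choice made after the data were seen, Rrm2 was at 86.3 to 178 CPM at the lowest step and 389 to 934 CPM at the highest, and Pclaf at 233 to 393 CPM and 862 to 1506 CPM. Cd52 was then at 266 to 822 CPM at the lowest step and 115 to 118 CPM at the highest. Tmsb10 was at 4344, 2095, 479 and 788 CPM at the lowest step in the order of libraries above and at 747, 402, 397 and 271 CPM at the highest, so that its ranges overlapped.

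**Figure D3:**
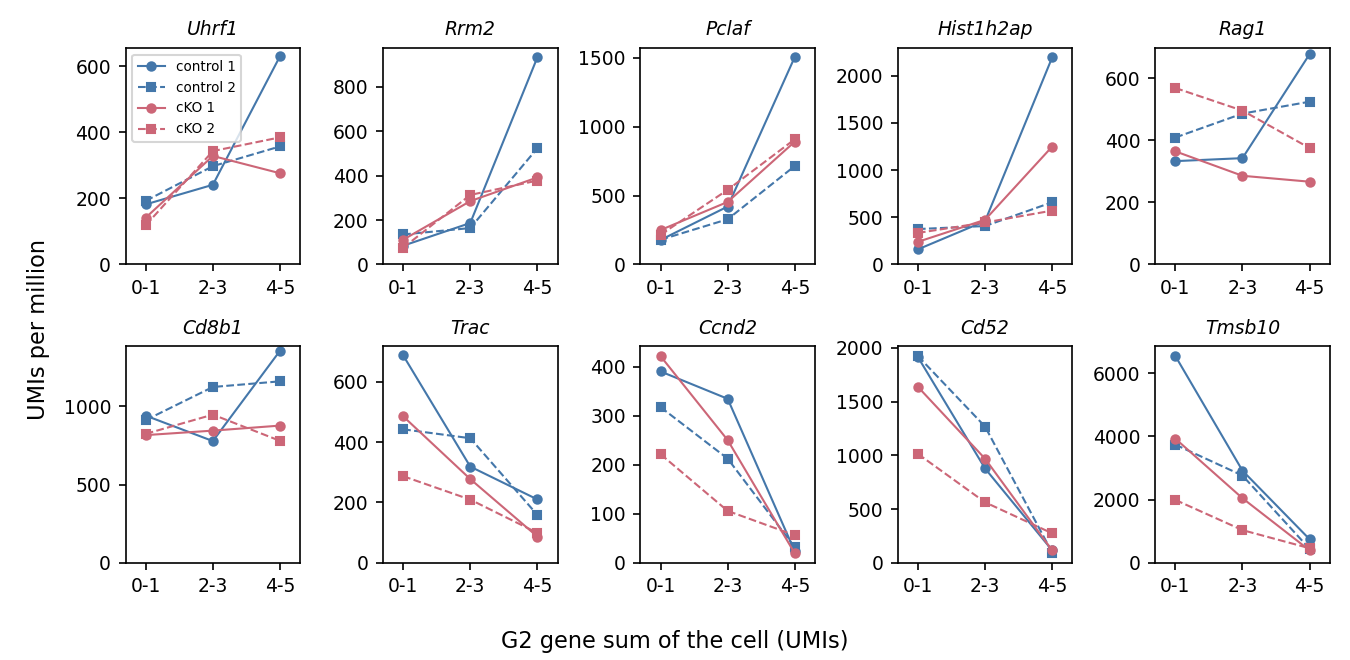
Level in CPM (up) of 10 genes in S-phase cells whose G2 gene sum was 0 to 1, 2 to 3 or 4 to 5 UMIs (across), 1 line a library, control in blue and cKO in red, without cells of 10 or more dendritic-list UMIs. Uhrf1, Rrm2, Pclaf and Hist1h2ap are higher at 4 to 5 than at 0 to 1 in every library, and Trac, Ccnd2, Cd52 and Tmsb10 lower in every library.

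The limits cut through a continuous range. With the other limits met, 6, 5, 11 and 17 cells of control 1, control 2, cKO 1 and cKO 2 had a G2 gene sum of 5, just inside the limit, and 4, 9, 7 and 17 cells a sum of 6, just outside. Their medians of the S-phase sum were 29, 23, 29 and 19 UMIs inside and 38, 36, 31 and 18 UMIs outside. At the limit of the S-phase sum, 3, 5, 4 and 11 cells had 6 UMIs and 7, 4, 4 and 18 cells had 5. A further 385, 544, 640 and 905 cells met every limit but those on G2 and mitosis genes and are counted among the G2/M cells. Their medians of the S-phase sum were 26, 21, 23 and 20 UMIs, at higher medians of total UMIs (11350 to 15091) than the S-phase cells had.

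The first comparison asked whether cKO thymi held more or fewer such cells. Their share among kept cells was 1.12% in control 1 (exact 95% binomial interval 0.820% to 1.49%), 1.44% in control 2 (1.12% to 1.83%), 1.69% in cKO 1 (1.34% to 2.11%) and 2.53% in cKO 2 (2.11% to 3.00%). The intervals cover counting error only. Both cKO libraries lay above both control libraries, and the means differed by 0.830 percentage points, with 0.576 between the libraries numbered 1 and 1.08 between those numbered 2. The exact permutation test (two-sided) gave p = 0.33, which is the smallest that 2 against 2 libraries can give.

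Set against G2/M cells, the ratio of S-phase to G2/M cells was 0.0785 and 0.0879 in control 1 and 2 and 0.0914 and 0.101 in cKO 1 and 2 (exact permutation test, p = 0.33). The groups did not overlap here either, and the means differed by 0.0133. Whether the ratios overlapped depended on the limits. Without mature-marker cells they were 0.0649 and 0.0750 in control and 0.0747 and 0.0943 in cKO, with overlap, and with an S-phase sum of 8 or more they were 0.0648 and 0.0759 against 0.0727 and 0.0913, also with overlap. Without both mature-marker and dendritic-marker cells they were 0.0633 and 0.0738 against 0.0749 and 0.0945, without overlap.

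Split by the G2 gene sum, which the gate used, the shares are given as a description without a test. S-phase cells with a G2 gene sum of 0 or 1 amounted to 0.632% and 0.744% of all kept control cells and to 0.695% and 0.823% of all kept cKO cells, and the groups overlapped. Those with a sum of 2 to 5 made up 0.486%, 0.700%, 0.999% and 1.70% in the same order. As a share of the S-phase cells themselves, cells with a sum of 2 to 5 were 43.5% and 48.5% in control 1 and 2 and 59.0% and 67.4% in cKO 1 and 2. With every S-phase cell thinned at random to 3000 UMIs, that share was 15.2% and 13.6% in control and 17.9% and 31.0% in cKO. Counted with a G2 gene sum under 2 only, the ratio of S-phase to G2/M cells turned round, to 0.0444 and 0.0453 in control against 0.0375 and 0.0330 in cKO.

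**Figure D4:**
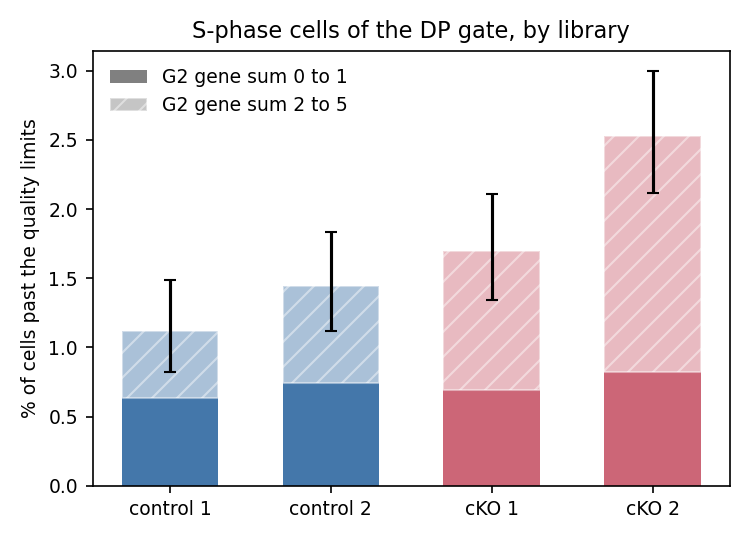
S-phase cells as a percentage of the cells past the quality limits (up) in each library, control in blue and cKO in red, split into cells with a G2 gene sum of 0 to 1 (solid) and 2 to 5 (hatched). Bars at the top are exact 95% binomial intervals of the whole share. The solid parts overlap between groups (0.632% to 0.823%) and the hatched parts do not (0.486% and 0.700% against 0.999% and 1.70%).

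Coreceptor mRNA was also used by the gate, and its levels are a description. S-phase cells without a Cd4 UMI numbered 10 of 46 and 10 of 66 in control 1 and 2 and 29 of 78 and 51 of 129 in cKO 1 and 2, or 21.7% and 15.2% against 37.2% and 39.5%. At 3000 UMIs per cell the shares were 54.3% and 51.5% against 57.7% and 66.7%. The background share of cells with a Cd4 UMI, taken in B cells, which lack the gene, was 6 of 10, 0 of 10, 1 of 14 and 4 of 16 cells in control 1, control 2, cKO 1 and cKO 2, with medians of 6276, 5313, 7275 and 4063 UMIs. The B cells were too few to set that background closely. Cd4 is 1 of the 3 genes of the coreceptor limit, and its level was 179 and 220 CPM in control and 173 and 142 CPM in cKO, without overlap.

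The second comparison asked which genes differed between cKO and control S-phase cells. UMIs were summed per library over the S-phase cells and entered edgeR's quasi-likelihood test, with Benjamini-Hochberg adjustment over 6896 genes. It called 21 genes at an adjusted p under 0.05, 0.305% of those tested, with 4 higher in cKO (0.0580%) and 17 lower (0.247%). Of the 17, 6 (Bcl11a, Cd44, Fcer1g, Ly86, Napsa and Tnfrsf4) reached the limit of the filter on low counts, 14.5 CPM, in no cKO library. Genes that entered through the group where they are high had to differ, and these 6 calls are given as a description. At an unadjusted p under 0.05 there were 569 genes (8.25%). The count of calls was between 40 (without cKO 2) and 92 (without cKO 1) when 1 library was left out, 61 without control 2 and 84 without control 1, and 0 when every cell was thinned to 3000 UMIs and the limits were applied again (edgeR, 363 genes at an unadjusted p under 0.05). With the library number as a replicate block, for which the labels give no ground, the count was 146, with 78 higher in cKO, and held all 21. Libraries did not overlap with cKO higher in 15% and with cKO lower in 22.3% of all genes tested, which is the background for such counts below. The median log2 fold change over all genes was 0.01 and their median SE was 0.31, with smaller SEs for the abundant genes given below.

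Tox4 (chr14:52279146-52296401, GRCm38) was at 53.1 and 57.8 CPM in control 1 and 2 and at 35.6 and 57.7 CPM in cKO 1 and 2, and the groups overlapped. Its log2 fold change was -0.17 ± 0.29 (SE, edgeR, adjusted p = 0.94). The longest annotated transcript has 10 exons and the kit reads the 3′ end, which lies outside the floxed exons 4 to 6, so these counts do not check the deletion. Of its phosphatase complex, Ppp1r10, the scaffold PNUTS, stood at 55.3, 57.8, 25 and 52.1 CPM in control 1, control 2, cKO 1 and cKO 2, and 0 of 6 members were called (edgeR), 0 at an unadjusted p under 0.05 and 0 by DESeq2.

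No gene list of DNA replication held a called gene by edgeR or by DESeq2. The counts of higher genes below stand against 50.7% of all genes tested with a higher fitted level in cKO. Of the 10 origin licensing genes tested that the gate did not use, 7 had a higher fitted level in cKO, with a median log2 fold change of 0.16, and 1 had an unadjusted p under 0.05. Mcm7, the most abundant helicase subunit outside the gate, was at 347 and 316 CPM in control and 341 and 393 CPM in cKO (log2 fold change 0.20 ± 0.15 SE, edgeR, adjusted p = 0.80). Mcm2 leaned the other way, with 281 and 228 CPM against 224 and 227 CPM. Of 10 genes of origin firing tested, 9 had a higher level in cKO, with a median of 0.37 and 0 at an unadjusted p under 0.05.

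The synthesis lists leaned the same way without a call. Cells with a G2 gene sum of 2 to 5 were 43.5% and 48.5% of control and 59.0% and 67.4% of cKO S-phase cells. Rrm2 and Pclaf rose with that sum, and the part of this share in the lean of the replication lists was not tested. Of 21 genes of polymerases and fork proteins, 18 had a higher fitted level in cKO, with a median of 0.13 and 4 at an unadjusted p under 0.05. Pcna was at 588 and 536 CPM in control and 564 and 624 CPM in cKO, with overlap. Lig1 was at 150 and 156 CPM in control and 228 and 190 CPM in cKO (log2 fold change 0.49 ± 0.18 SE, edgeR, adjusted p = 0.43). Of 20 nucleotide supply genes, 17 had a higher level in cKO, with a median of 0.12 and 2 at an unadjusted p under 0.05. Dut, which keeps uracil out of DNA, was at 845 and 709 CPM in control and 830 and 949 CPM in cKO, with overlap. Dctpp1, which removes unwanted nucleotides, was at 186 and 141 CPM in control and 233 and 230 CPM in cKO (log2 fold change 0.56 ± 0.18 SE, edgeR, adjusted p = 0.30).

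For chromatin copying and DNA methylation, all 7 genes tested outside the gate (thus without Hells and Uhrf1) had a higher fitted level in cKO, with a median of 0.33, 2 at an unadjusted p under 0.05 and 5 without overlap between groups, against the 15% of all genes above. Slbp, which binds histone mRNA, was the most abundant, at 469 and 335 CPM in control and 391 and 402 CPM in cKO. Ezh2, the methyltransferase of histone H3 lysine 27, stood at 217 and 257 CPM in control and 287 and 362 CPM in cKO (log2 fold change 0.50 ± 0.17 SE, edgeR, adjusted p = 0.34). Dnmt1, the maintenance DNA methyltransferase, was at 203 and 201 CPM against 234 and 268 CPM. Of 12 histone genes tested, 7 had a higher level in cKO, with a median of 0.03, 0 at an unadjusted p under 0.05 and 0 without overlap. Of 16 genes of repair and the replication checkpoint tested outside the gate (thus without Ung and Dtl), 13 had a higher level in cKO, with a median of 0.14 and 1 at an unadjusted p under 0.05.

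No gene was called among G2 and mitosis genes that the gate did not use. All 11 that were tested had a higher fitted level in cKO, with a median of 0.58 and a range of 0.25 to 1.09, 4 of them at an unadjusted p under 0.05, 6 without overlap and 0 called by edgeR or DESeq2, and these counts were not compared with those of other lists by a test. Another 9 of the list did not reach the filter on low counts. Cdk1, the kinase that drives mitosis, was at 46.5 and 36.9 CPM in control and 65.9 and 54.9 CPM in cKO (log2 fold change 0.59 ± 0.27 SE, edgeR, adjusted p = 0.60). Ccna2, its S and G2 partner cyclin A2, was at 24.3 and 16.1 CPM in control but 32.9 and 28.4 CPM in cKO (0.67 ± 0.38 SE, edgeR, adjusted p = 0.70). With every cell thinned to 3000 UMIs and the limits applied again, which took 92, 127, 146 and 217 partly different cells, the log2 fold changes of Cdk1 and Ccna2 were -0.16 and -0.079. Ccnb2 was at 31.0 and 48.2 CPM against 22.4 and 43.5 CPM, with overlap, and Ccnb1, at 3.21 to 9.47 CPM, was too low to be tested. The share of cells with a G2 gene sum of 2 to 5 moved with these genes, and its part in the result was not tested.

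In the same cKO libraries the G2/M cells had Cdk1 lower, with a log2 fold change of -0.27 (edgeR, adjusted p = 0.36), and the non-cycling cells 0.34 (adjusted p = 0.72). The effects on Cdk1 in S-phase and G2/M cells differed by 0.88 ± 0.24 (SE), which did not pass the test of the difference (edgeR, adjusted p = 0.31). These comparisons share their libraries.

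Among genes of the G1/S step, 0 of 19 tested were called by edgeR or DESeq2, 5 were at an unadjusted p under 0.05 and the median was 0.07. Cdk6 stood at 81.8 and 91.5 CPM in control and 128 and 116 CPM in cKO. Ccnd3, the cyclin D3 gene needed for the expansion of DP blasts, stood at 891 and 864 CPM in control and 698 and 737 CPM in cKO (log2 fold change -0.24 ± 0.11 SE, edgeR, adjusted p = 0.57). E2f1 had a log2 fold change of 0.38 ± 0.25 (SE, edgeR, adjusted p = 0.77).

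Of 24 genes of T-cell identity and beta selection, 0 were called by edgeR or DESeq2, 6 were at an unadjusted p under 0.05, 7 were without overlap and lower in cKO against 22.3% of all genes, and the median was -0.02. Trbc2, the most abundant, was at 3794 and 3913 CPM in control and 4117 and 3834 CPM in cKO, with overlap. Cd8a, a gene of the gate, was at 582 and 526 CPM in control and 447 and 488 CPM in cKO. Cd8b1, also a gene of the gate, was at 949 and 974 CPM in control and 842 and 862 CPM in cKO. Neither overlapped between groups, and both are given without a test since the gate used them. At a mitochondrial limit of 5% both turned round, to log2 fold changes of 0.091 for Cd8a and 0.13 for Cd8b1.

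Other fixed lists gave no call by edgeR or DESeq2. The growth list had 3 of 16 tested genes at an unadjusted p under 0.05 and a median of 0.11, with Npm1, a nucleolar chaperone, at 1664 and 1692 CPM in control and 1964 and 1893 CPM in cKO. The p53 list had 1 of 6 at an unadjusted p under 0.05 and a median of 0.22. That 1 gene was Phlda3, named after its values were seen, with 1 and 2 UMIs (2.21 and 3.21 CPM) in control and 13 and 18 UMIs (17.1 and 17.0 CPM) in cKO. It reached the filter on low counts through the cKO libraries alone, so its p is not given as support. The interferon list had 1 of 5 and a median of -0.35, which was Ifi27l2a at 234 and 283 CPM in control and 169 and 126 CPM in cKO (log2 fold change -0.78, and -0.23 without the 3 dendritic-marker cells). Of the Tox paralogs only Tox was abundant enough to be tested, with a log2 fold change of -0.06 and adjusted p = 0.98 by edgeR.

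The 4 genes called higher in cKO were Gzma, Arpp21, Rps25 and Rplp2. Gzma, which encodes the protease granzyme A, stood at 179 and 263 CPM in control 1 and 2 and 401 and 414 CPM in cKO 1 and 2 (log2 fold change 0.91 ± 0.17 SE, edgeR, adjusted p = 0.030). It was also higher in G2/M cells (1.0, adjusted p = 0.0017) and in non-cycling cells (1.89, adjusted p = 0.00056) of the same libraries. Arpp21, an RNA-binding protein of immature thymocytes, stood at 350 and 340 CPM in control and 502 and 588 CPM in cKO (0.71 ± 0.14 SE, edgeR, adjusted p = 0.033). Its effect in non-cycling cells was 0.16 (adjusted p = 0.48) and smaller than in S-phase cells by 0.56 ± 0.12 (SE, adjusted p = 0.030 for the difference), and by 0.49 without dendritic-marker cells of either kind of cell, which did not pass (adjusted p = 0.10). Rps25 and Rplp2, ribosomal protein genes, had log2 fold changes of 0.43 ± 0.09 and 0.35 ± 0.07 (SE), each with an adjusted p of 0.048 by edgeR.

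The 17 genes called lower in cKO were led by genes of antigen-presenting cells. Cd74, the invariant chain of MHC class II, stood at 350 and 1238 CPM in control 1 and 2 and 27.7 and 24.6 CPM in cKO 1 and 2 (log2 fold change -4.90 ± 0.46 SE, edgeR, adjusted p = 7.9e-05). H2-Aa, H2-Ab1 and H2-Eb1, chains of MHC class II, had log2 fold changes of -4.90, -4.44 and -4.22. Napsa and Ly86, genes of antigen-presenting cells, had 33 and 32 UMIs over both control libraries and 0 in cKO, at least 18.6-fold and 18.0-fold lower against a floor of 3 counts over the cKO group. Ifi30 and Ctss were called as well, and so were Bcl11a (8 and 30 UMIs in control, 1 and 1 in cKO), Cd44 (20 and 16 against 2 and 2) and Fcer1g (8 and 60 against 5 and 4), which entered the test through control alone.

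Most of those UMIs came from the 3 cells with dendritic markers. They held 91.8% and 97.1% of the Cd74 UMIs of control 1 and control 2, 100% and 99.0% of those of H2-Aa, 89.8% and 98.8% of those of H2-Ab1, 100% of those of Ly86 in both and 100% and 90.0% of those of Napsa. The exceptions were Cd44, with 18.8% in control 2, and Fcer1g, with 0% in control 1, and the shares of Ifi30 and Ctss in control 1 were 48.6% and 42.1%. Without the 3 cells Ifi30 and Ctss had log2 fold changes of -0.25 and -0.75 and did not pass (edgeR, adjusted p = 0.95 and 0.80). Without them Cd74 had a log2 fold change of -0.34 (edgeR, adjusted p = 0.90), and H2-Aa, H2-Ab1, H2-Eb1, Napsa, Ly86, Bcl11a, Cd44 and Fcer1g fell below the filter on low counts. The test then called 2 genes, Gm12840, an unnamed gene model (log2 fold change -1.72, adjusted p = 0.011), and Tnfrsf4, the receptor OX40. Tnfrsf4 had 16 and 37 UMIs in control and 8 and 7 in cKO and reached the filter through control alone. The log2 fold changes of Gzma, Arpp21, Rps25 and Rplp2 were then 0.84, 0.67, 0.43 and 0.34, with adjusted p between 0.15 and 0.23, and the 3 cells held between 0% and 5.65% of the control UMIs of these genes in a library. Of the UMIs of Tnfrsf4 in control 1, 100% lay in mature-marker cells, against 8.11% in control 2, and for Gm12840 the shares were 83.3% and 82.1%.

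Actin and thymosin genes were also called lower in cKO. Tmsb4x, thymosin beta 4, stood at 4997 and 5331 CPM in control and 3466 and 2712 CPM in cKO (log2 fold change -0.70 ± 0.10 SE, edgeR, adjusted p = 0.0020), with 5.36% and 24.9% of its control UMIs in the 3 cells and 44.2% and 35.1% in mature-marker cells. Actb and Actg1, the cytoplasmic actins, had log2 fold changes of -0.49 ± 0.08 and -0.67 ± 0.13 (SE, edgeR, adjusted p = 0.0043 and 0.048). Without the 3 cells the log2 fold changes of Tmsb4x, Actb and Actg1 were -0.51, -0.42 and -0.64, each with an adjusted p of 0.15. Cd82 was the remaining called gene, at 61.9 and 53 CPM in control and 17.1 and 14.2 CPM in cKO, with 42.9% of its UMIs in control 1 and 0% in control 2 in the 3 cells. Without them its log2 fold change was -1.55 (edgeR, adjusted p = 0.16). These 4 genes and Gm12840 lay outside the rule for naming genes and were named after their values were seen.

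Leaving out the dendritic-marker and the mature-marker cells together left 34, 51, 59 and 114 cells and 5823 genes, of which 25 were called (0.429%), 12 higher and 13 lower in cKO, and 6 of them were among the 21 above. The cells to leave out were chosen after the data were seen. The genes called lower included Izumo1r, Cd53, Tmsb10, Vim, Itm2a, Ccnd2 and Cd52. Izumo1r and Cd53 reached the filter on low counts through control alone. Izumo1r had 13 and 19 UMIs in control, all 13 of control 1 in 3 cells, and 1 and 5 UMIs in cKO. Cd53 had 26 and 15 UMIs against 6 and 7, with 88.5% and 73.3% of the control UMIs in 5 cells. Tmsb10 had a log2 fold change of -1.93 (edgeR, adjusted p = 5.9e-09), against -0.97 (adjusted p = 0.091) over all S-phase cells. For Tmsb10, 5 cells of control 1 held 77.7% of the UMIs of the remaining cells and 5 cells of control 2 held 59.0%, against 32.7% and 31.6% for 5 cells of cKO 1 and cKO 2. For Cd52 the top 5 cells held 64.4% and 72.7% in control and 37.4% and 34.7% in cKO, for Vim 83.9% and 50% against 61.5% and 28.6%, and for Itm2a 78.6% and 83.5% against 73.8% and 55.3%. Medians of Tmsb10 per cell were 6 and 5 UMIs in control and 3 and 2 UMIs in cKO. For Ccnd2 (-1.53, adjusted p = 0.023) the top 5 cells held 91.4% and 84.4% in control and 78.6% and 72.7% in cKO, and these cells stayed below the limit of the mature list.

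Of the 12 genes then called higher, 9 were ribosomal protein genes of the large and small subunits and another was the ribosomal pseudogene Rpl10-ps3, whose reads can be shared with Rpl10. The others were Gzma (0.81, adjusted p = 0.016) and Phgdh, the first enzyme of serine synthesis, at 164 and 165 CPM in control and 254 and 241 CPM in cKO over all S-phase cells (0.79 without the 2 kinds of cells, edgeR, adjusted p = 0.041). Over all S-phase cells, 82 of 88 ribosomal protein genes tested had a higher fitted level in cKO, with a median log2 fold change of 0.19 against 0.01 over all genes, and 2 were called. This list was taken after those values were seen. Ribosomal protein genes made up 27.0% and 27.3% of the UMIs of S-phase cells in control and 30.1% and 30.1% in cKO. The same genes made up 22% and 22.5% against 24.2% and 25.2% in G2/M cells and 19.5% and 19.1% against 21.9% and 22% in non-cycling cells, so the shift was seen in each of the 3 groups of cells.

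**Figure D5:**
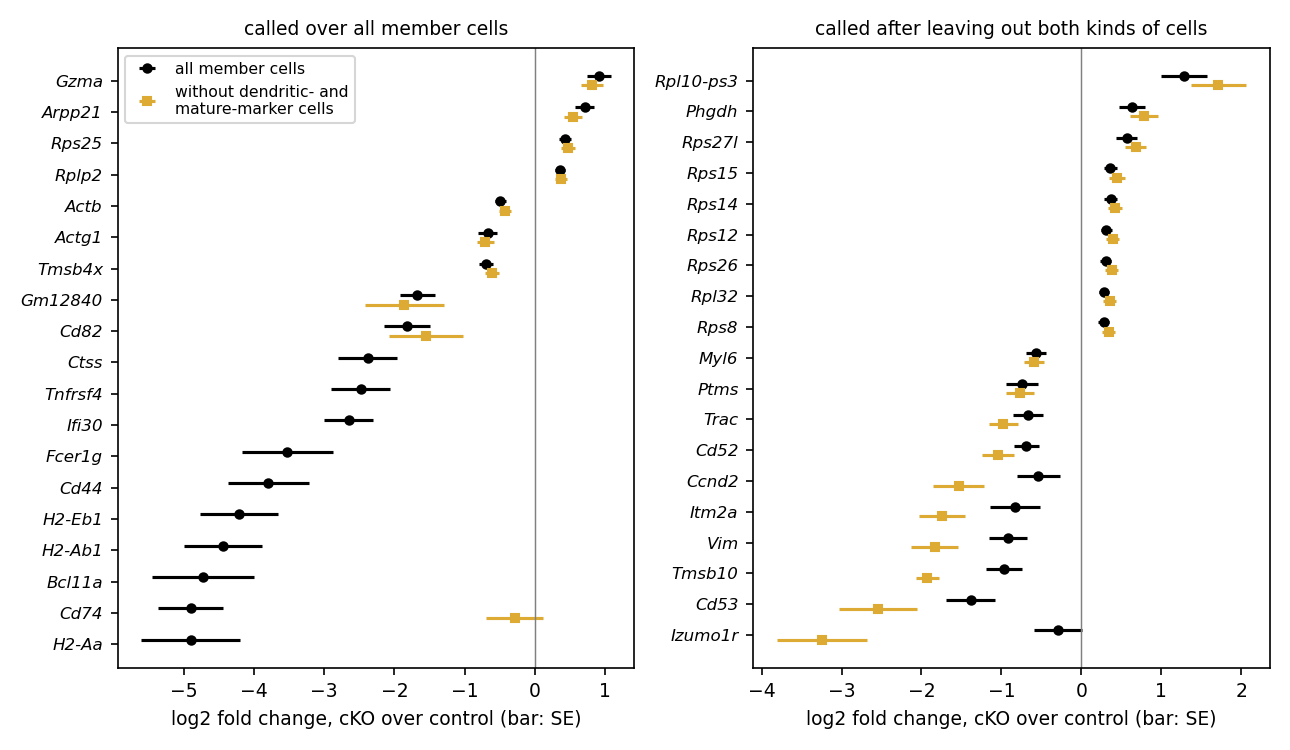
Log2 fold change (cKO over control, across) with its SE for genes called over all S-phase cells (left) and genes called only after the dendritic-marker and mature-marker cells were left out (right), each over all S-phase cells (black) and without those cells (yellow). Napsa and Ly86, at 0 in cKO, are not drawn, and a missing yellow marker means that the gene fell below the filter on low counts. Cd74 moves from -4.90 to -0.29, whereas Gzma, Tmsb4x, Rps25 and Rplp2 keep their direction.

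The third comparison asked whether the genotype effect in S-phase cells differed from that in their neighbours, with an interaction term over all 4 libraries. Against G2/M cells 12 of 10962 genes were called (0.109%). None of the 12 was among the 3 genes called without UMI outliers, the 1 called with a G2 gene sum under 2 or the 1 called at a mitochondrial limit of 5%, and 1 was among the 2 called with an S-phase sum of 8 or more. Without control 2 the count was again 12, of which 1 was among the first 12. Ly86, 1 of the 12, reached the limit of the filter (here 2.02 CPM) only in S-phase cells from control, and Ly86 and Napsa fell below the filter when dendritic-marker cells were left out of S-phase and G2/M cells alike. Of the 12, 5 had a higher effect in S-phase cells, namely Trdc, Ly6d, Hmgb2, Stmn1 and Ptma. Hmgb2, a chromatin protein that peaks in G2, stood at 1588 and 1538 CPM in control and 1663 and 1930 CPM in cKO S-phase cells, and at 5824 and 5609 CPM in control and 5202 and 4620 CPM in cKO G2/M cells. The effects differed by 0.46 ± 0.09 (SE, edgeR, adjusted p = 0.032), and by 0.43 without the dendritic-marker cells (adjusted p = 0.012). Stmn1, which destabilises microtubules, stood at 1416 and 1271 CPM in control and 1613 and 1662 CPM in cKO S-phase cells, and its effects differed by 0.41 ± 0.08 (SE, edgeR, adjusted p = 0.032).

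Against non-cycling DP cells 40 of 10534 genes were called (0.380%), 1 with a higher effect in S-phase cells, Arpp21, and 39 with a lower one. The largest were Ms4a1, Ly86, Napsa, Cybb and Ctsh, genes of B cells and of myeloid cells, which had 16, 32, 33, 19 and 18 UMIs in control and 0 in cKO S-phase cells. For Ms4a1 15 of the 16 UMIs came from control 1, and for Cybb and Ctsh 16 UMIs each came from control 2. Without dendritic-marker cells in either group, Ctsh did not pass the test (adjusted p = 0.91) and the other 4 fell below the filter. For Tmsb4x the effects differed by -0.62 ± 0.08 (SE, edgeR, adjusted p = 7.5e-05), and by -0.46 without the dendritic-marker and mature-marker cells (adjusted p = 0.00057).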

How the data were processed

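Droplet libraries of thymocytes from 2 Tox4 F/F (control) and 2 Tox4 F/F Lck-Cre (cKO) samples were analysed. The deposited values are raw UMI counts per gene and cell, made by the authors with Cell Ranger 6.1.1 on mm10. A library held 42716798 to 62007453 UMIs, and the S-phase cells 452055 to 1056311. Deposited counts of the S-phase cells were summed per library and tested with edgeR 4.0.16 (quasi-likelihood F test, TMM, filterByExpr, Benjamini-Hochberg adjustment at 0.05), and effects between kinds of cells with an interaction term and library as a term. Non-cycling DP cells had sums under 2 for each cycle list. DESeq2 1.42.0 was an alternative, as were other limits, thinning, doublet removal (scrublet in scanpy 1.11.5, top 5%), library left out and the replicate number as a block. Scripts were tested on simulated counts. Members, lists and tests were chosen with earlier results of these data known. Intervals are exact binomial, and floors are 3 counts.

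Genes were named by a rule: up to about 6 of each list by mean CPM or called, up to 12 called genes a direction, by size of change, whose libraries did not overlap, the 5 largest differences of effect in each direction, the 15 largest ratios between kinds of cells, and Tox4, Cdk1, Ccna2, Ccnb1, Ccnb2, Cd8a and Cd8b1. Positions are from GRCm38 and promoters from RefSeq on GRCm38.p6. No doublets were removed in the values reported first. Some genes within these rules and lists are not reported here.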

Additional observations from a re-analysis of the deposited data

Results flagged for a closer look

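In 16 cases the genotype effect on a named gene differed between S-phase cells and their neighbours by the test of the difference itself (edgeR interaction term, adjusted p under 0.05). Differences are log2 fold change in S-phase cells minus that in the other cells.

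Against G2/M cells the differences were -11.30 for Ly86, -10.08 for Napsa, -5.56 for Tyrobp, -4.25 for Fcer1g and -2.15 for Ifi30. These are genes of myeloid or antigen-presenting cells, and the first 2, at 0 in cKO S-phase cells, have fitted values that depend on the prior count and are no measure of size. Ly86 entered the test only through S-phase cells from control, and the 3 dendritic-marker cells held 100% of its UMIs there and 100% and 90.0% of those of Napsa. With dendritic-marker cells left out of S-phase and G2/M cells alike, both fell below the filter on low counts and had no value. Then Tyrobp, Fcer1g and Ifi30 had differences of -1.84, -1.55 and -0.23 and did not pass the test (adjusted p from 0.90 to 0.99).

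In the other direction the differences were 0.82 for Trdc, 0.56 for Ly6d, 0.46 for Hmgb2, 0.41 for Stmn1 and 0.30 for Ptma. Without the dendritic-marker cells they were 0.77, 0.75, 0.43, 0.37 and 0.27, and Ptma alone among the 5 did not pass (adjusted p = 0.056). Without the mature-marker cells as well, Trdc was at 0.57 and did not pass (edgeR, adjusted p = 0.11). Ptma was then at 0.25 and passed (edgeR, adjusted p = 0.049).

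Against non-cycling DP cells the differences were -11.29 for Ms4a1, -11.02 for Ly86, -10.59 for Napsa, -10.12 for Cybb and -9.86 for Ctsh, all at 0 in cKO S-phase cells and no measure of size for the same reason. Without the dendritic-marker cells Ctsh did not pass (adjusted p = 0.91) and the other 4 fell below the filter. Over both control libraries these genes were at least 9.01-fold, 18.0-fold, 18.6-fold, 10.7-fold and 10.1-fold higher than a floor of 3 counts over the cKO group. For 3 of them the bound rests on 1 library: from control 2 alone Ms4a1 was at 0.971 times the floor, and from control 1 alone Cybb and Ctsh were at 4.02 and 2.68 times. For Arpp21 the difference was 0.56, and 0.49 without the dendritic-marker cells (adjusted p = 0.10).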

How the results depend on the processing

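Against 21 called genes in S-phase cells, the DESeq2 Wald test called 11, a G2 gene sum under 2 called 1, an S-phase sum of 8 or more called 3, equal cells and UMIs called 9, no filter on low counts called 138, and leaving out the dendritic-marker cells called 2. A mitochondrial limit of 5%, and thinning to 3000 UMIs with the limits applied again, each called 0 by edgeR (157 and 363 genes at an unadjusted p under 0.05), and DESeq2 was not run on them. Leaving out 1 library gave 40 to 92 calls, where the lone library is assumed to vary like the other group. With the replicate number as a block the count was 146, 78 of them higher. The study describes pairs of mice, but the labels do not say that a number marks a pair. Deviations of same-numbered libraries correlated by 0.0973, and the share of cells over the mitochondrial limit followed the number.

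Against 12 genes with an effect unlike that in G2/M cells, counts were 7 with DESeq2 size factors, 1 with a G2 gene sum under 2, 2 with an S-phase sum of 8 or more, 3 without UMI outliers, 1 at the 5% mitochondrial limit, 36 without a filter, 39 without mature-marker cells, 23 without both kinds of cells and 12 to 51 without 1 library (12 without control 2, of which 1 was among the first 12). Against 40 for non-cycling cells they were 8 with a G2 gene sum under 2, 4 at the 5% limit, 96 without a filter, 17, 23 and 13 without dendritic-marker, mature-marker and both kinds of cells, and 29 to 120 without 1 library. The ratio of S-phase to G2/M cells differed by -0.00954 with a G2 gene sum under 2. The cause of these changes was not tested.

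Of 388 values of 27 genes under alternatives, 283 kept direction and side of the threshold, 94 lost the call and 11 reversed. At the 5% limit Gm12840 was 0.37, Cdk1 -0.035, Cd8a 0.091 and Cd8b1 0.13. Thinned, Tox4 was 0.34, Cdk1 -0.16 and Ccna2 -0.079. Tox4 was 0.20 with a G2 gene sum under 2 and 0.098 without cKO 1, and Ccnb2 0.15 without cKO 1 and 0.21 without control 2. Without 1 library, Tox4 lay between -0.58 and 0.098 and Ccnb2 between -0.78 and 0.21. With 2 libraries a group and 46 to 129 cells each, the depth limits single genes.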
